A study of Bos taurus with 35 samples.

Results

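*FASN*, *ACACA*, *ACLY* and *ELOVL6*, which encode enzymes of *de novo* fatty acid synthesis, were followed in bovine *longissimus thoracis et lumborum* over time *post-mortem*. They are 4 of the 27607 genes in the count table and were taken by identifier: ENSBTAG00000015980 (*FASN*), ENSBTAG00000017567 (*ACACA*), ENSBTAG00000016740 (*ACLY*) and ENSBTAG00000010564 (*ELOVL6*). All 4 passed the filter on low expression, which left 14630 genes in all. They were chosen by their lower counts in the later libraries than in those of 0 h, so their values at 24, 48 and 72 h against 0 h are a description. No p-value is given for these, and a call made there restates the choice.

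Muscle cores came from 7 British × Continental crossbred beef heifers finished on barley grain, each sampled first at 45 min after slaughter (called 0 h) and then at 6, 24, 48 and 72 h, with the carcass sides kept in a drip cooler. No group received a treatment, and every animal gave 1 library per time point (35 libraries, n = 7 at each time). Each core was a separate piece of muscle holding muscle fibres together with any fat, vessel and connective tissue cells in it. Total counts ranged from 20568418 to 104275821 per library, with a median of 40133660. Muscle transcripts were abundant in every library: *CKM*, *TNNT1* and *TNNT3* together took between 23800 and 55700 CPM (counts scaled to a common library size).

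Fatty acid synthesis in the cytosol starts from acetyl-CoA, which *ACLY* (ATP citrate lyase) makes from citrate. *ACACA* (acetyl-CoA carboxylase alpha) turns it into malonyl-CoA, the committed step, *FASN* (fatty acid synthase) condenses malonyl-CoA units into palmitate, and *ELOVL6* lengthens palmitate to stearate. In cattle, adipose tissue is the main site of this pathway outside lactation, acetate rather than glucose is its main carbon source, and adipocytes lie between the fibre bundles of the muscle as marbling fat.

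*FASN*, *ACACA* and *ELOVL6* had varied levels between animals at 0 and 6 h, and *ACLY* chiefly at 6 h. From 24 h onward all 4 had lower levels that differed less between animals than before. Levels are normalized CPM, with library size and composition scaled by TMM. They are compared only within a gene, since gene lengths were not used here.

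*ACLY*, which makes acetyl-CoA from citrate, had the smallest difference. At 0 h its level was 15.1 CPM in the lowest library, 26.8 in the median and 28.6 in the highest (25.3 ± 4.68, mean ± SD, n = 7). The corresponding levels were 17.8, 19.9 and 92.9 CPM in the 6 h libraries and 11.4, 13.6 and 16.1 CPM in those taken at 24 h. They were 11.5, 12.7 and 15.8 CPM for 48 h, and 10.2, 14.2 and 15 CPM for 72 h. The 24 h and 48 h libraries overlapped those of 0 h only through animal 103, which had the lowest 0 h level, and the 72 h libraries lay just below it.

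*ACACA* had a median of 41.2 CPM in the 0 h libraries, with 16.4 as the lowest and 78 as the highest level. By 6 h the median was 27 CPM and the extremes were 14 and 127. The 24 h libraries had a median of 12.9 CPM (lowest 11.4, highest 13.5), those of 48 h 10.8 (9.65, 12.5) and those of 72 h 11.3 (9.47, 11.8). Every library from 24 h onward lay below every library of 0 h and of 6 h.

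*FASN* showed the same course. Its lowest, median and highest levels were 69.4, 229 and 373 CPM initially and 62.1, 146 and 959 CPM by 6 h. The 24 h libraries had 37.2, 40.3 and 45.9 CPM, the 48 h libraries 30.2, 37 and 40.6, and the 72 h libraries 28.9, 40.3 and 46.8. No library from 24 h onward reached the lowest level seen at 0 or 6 h.

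*ELOVL6* had the largest difference of the 4. In the 0 h libraries its median was 23 CPM, with extremes of 5.27 and 52, and in those of 6 h the median was 19, with extremes of 3.96 and 137. From 24 h it was between 1.16 and 2.99 CPM in all 21 libraries, with successive medians of 2.32, 1.95 and 1.98. The lowest count behind any of these values was 37 reads for *ELOVL6*, against 187 for *ACACA*, 254 for *ACLY* and 777 for *FASN*.

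**Figure D1:**
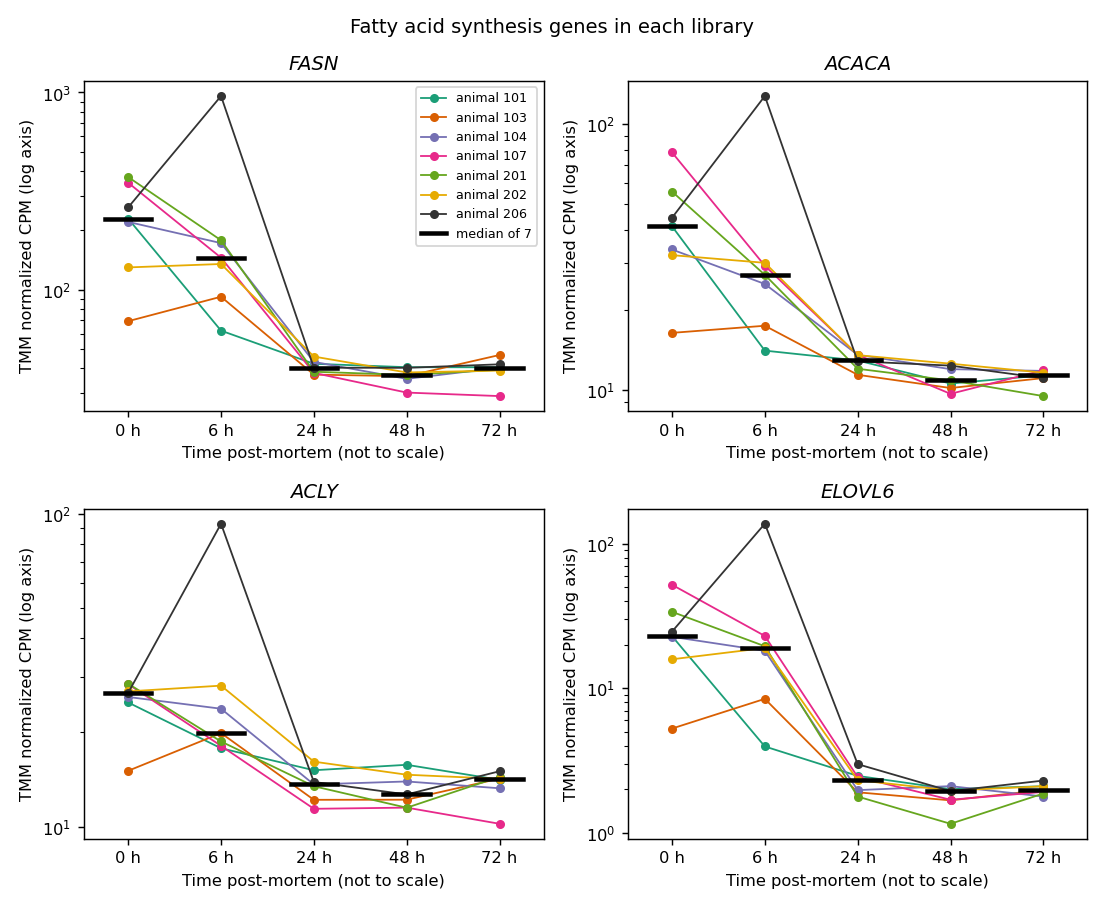
Normalized CPM (log axis) of *FASN*, *ACACA*, *ACLY* and *ELOVL6* against time *post-mortem*, with a line per animal (7 animals) and a black bar at the median of each time point. The lines are spread at 0 and 6 h, for *ACLY* at 0 h only through animal 103. Animal 206 stands highest at 6 h in each panel, and from 24 h the lines run close together at a low level.

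Against 0 h, the fitted log2 fold change of *ELOVL6* was -3.44 (standard error 0.43), -3.69 (0.44) and -3.47 (0.43) for the 24, 48 and 72 h libraries, or 10.8, 12.9 and 11.1 times lower. That of *FASN* was -2.44 (0.36), -2.59 (0.36) and -2.48 (0.36), or between 5.43 and 6.03 times lower. *ACACA* had log2 fold changes of -1.69 (0.28), -1.89 (0.29) and -1.86 (0.29). *ACLY* had log2 fold changes of -0.88 (0.21), -0.93 (0.22) and -0.89 (0.22), which is 1.84 to 1.9 times lower. Each gene was lower than at 0 h in 7 of 7 animals at all 3 time points. The median log2 fold change of all genes tested was within 0.01 of 0 at 24 and 48 h and 0.01 at 72 h.

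These differences are the ones that chose the genes, so nothing is read from the calls. All 4 met the threshold for downregulation (FDR below 0.05 and fold change above 1.5) at 24, 48 and 72 h, where 0.95%, 6.3% and 15.4% of all genes tested did, and 0.725%, 2.96% and 9.8% were upregulated. Libraries of 0 h and of the later time point did not overlap for *FASN*, *ACACA* and *ELOVL6* at 24 and 48 h and for all 4 genes at 72 h. Over all genes, 0.396%, 3.34% and 10.1% were lower without overlap at these time points. Ordered from the lowest log2 fold change upward, *ELOVL6* was 25th of the 14630 genes at 24 h, *FASN* 37th, *ACACA* 60th and *ACLY* 111th. In the same order of the 72 h values *ELOVL6* was 27th, *FASN* 58th and *ACLY* 1224th. *ACLY* no longer met this threshold at 24 h without animal 107 or 201, or without the animal block.

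**Figure D2:**
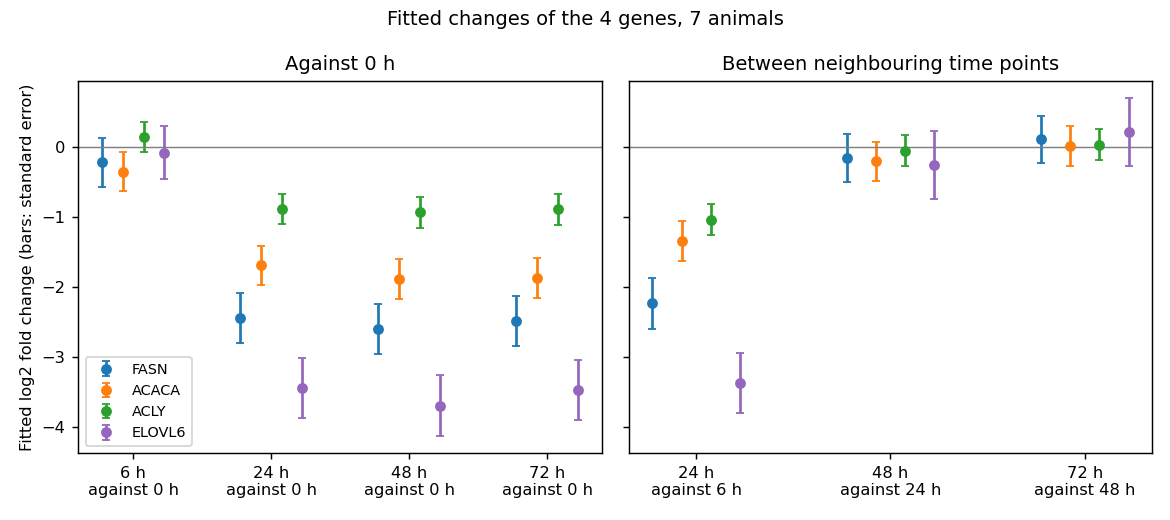
Fitted log2 fold changes of the 4 genes against 0 h (left) and between neighbouring time points (right), with bars of 1 standard error from the model of 35 libraries. Of the steps between neighbouring time points, that from 6 to 24 h is the largest, from -1.03 for *ACLY* to -3.36 for *ELOVL6*, and the later steps are near 0. The values at 6 h, from -0.34 for *ACACA* to 0.15 for *ACLY*, combine animals that went in both directions. Without the 6 h library of animal 206 they run from -0.83 for *ACACA* to -0.26 for *ACLY*.

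Ratios to *FASN* within a library restate the differences from 0 h, and so are no second support for the order of the 4 genes. Relative to *FASN*, *ELOVL6* was lower at 24 h than at 0 h by -0.88 ± 0.35 on the log2 scale (SD, n = 7) and lower in all 7 animals at 24, 48 and 72 h. *ACLY* was higher relative to *FASN* by 1.47 ± 0.59 and *ACACA* by 0.73 ± 0.32 at 24 h, in all 7 animals at each later time point. At 6 h these ratios differed from 0 h by 0.12 ± 0.38 for *ELOVL6* (higher in 6 of 7 animals), 0.37 ± 0.52 for *ACLY* (in 5) and -0.10 ± 0.23 for *ACACA* (in 2). The ratios were not tested.

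At 6 h none of the 4 genes was DE, and 0.185% of all genes tested were downregulated and 0.349% upregulated. The 0 h libraries are shared with the comparisons that chose the genes. The log2 fold changes were -0.21 for *FASN* (standard error 0.35, FDR = 0.85), -0.34 for *ACACA* (0.28, FDR = 0.63), 0.15 for *ACLY* (0.21, FDR = 0.82) and -0.07 for *ELOVL6* (0.38, FDR = 0.96). Animals went in both directions. *FASN* at 6 h was 0.271 times its own 0 h level in animal 101, 0.417 times in 107, 0.478 times in 201 and 0.781 times in 104. In contrast it was 1.04 times that level in animal 202, 1.33 times in 103 and 3.67 times in 206.

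The other genes divided the animals in nearly the same way. *ELOVL6* and *ACLY* were lower in animals 101, 104, 107 and 201 and higher in 103, 202 and 206. *ACACA* differed only in animal 202, at 0.936 times its 0 h level. In animal 206, *ELOVL6* stood at 5.57 times, *ACLY* at 3.47 times and *ACACA* at 2.87 times the 0 h level. The SD between animals of the log2 difference from 0 to 6 h was 1.57 for *ELOVL6*, 1.25 for *FASN*, 1.06 for *ACACA* and 0.86 for *ACLY*, against a median of 0.18 over all genes tested. Between 97.2% and 99.7% of all genes had a smaller SD.

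The 6 h library of animal 206, with 44709729 counts, weighed heavily on these values. Leaving it out was an alternative added after the data were seen. When this library was left out, *ACACA* was downregulated at 6 h (log2 fold change -0.83, FDR = 0.0089), and the values were -0.80 for *FASN* (FDR = 0.054), -0.67 for *ELOVL6* (FDR = 0.18) and -0.26 for *ACLY* (FDR = 0.17). Without animal 206 altogether, *ACACA* was downregulated as well (-0.82, FDR = 0.02), and over all genes tested 39 were downregulated and 47 upregulated. Without animal 107 the values moved the other way, to 0.012 for *FASN*, 0.18 for *ELOVL6*, -0.12 for *ACACA* and 0.30 for *ACLY*.

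From 6 to 24 h all 4 genes were downregulated, as were 0.54% of all genes tested, with 0.00684% upregulated. The 24 h libraries of this comparison are among those that chose the genes, so that the test is not independent of the choice. The log2 fold change was -3.36 for *ELOVL6* (standard error 0.43, FDR = 9.8e-06), -2.23 for *FASN* (0.36, FDR = 0.00041), -1.34 for *ACACA* (0.29, FDR = 0.012) and -1.03 for *ACLY* (0.22, FDR = 0.012). Each gene was lower in 7 of 7 animals, and no 24 h library overlapped a 6 h library in any of them. Over all genes, 0.253% were lower at 24 h without overlap. Animal 101 had the smallest drop and 206 the largest: for *FASN* the log2 differences were -0.56 and -4.57.

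Between 6 and 24 h the calls of *FASN*, *ACACA* and *ACLY* depended on fitting all 35 libraries together. In a fit of only the 14 libraries of 6 and 24 h, *ELOVL6* was called (FDR = 0.005), but *FASN* (FDR = 0.068), *ACACA* (0.24) and *ACLY* (0.3) were not. *ACACA* also missed the threshold without animal 104, 201 or 202 (FDR between 0.053 and 0.065), and *ACLY* without 104 (0.067) or 202 (0.052). Without the 6 h library of animal 206 all 4 remained downregulated, with log2 fold changes of -2.75 for *ELOVL6*, -1.66 for *FASN*, -0.87 for *ACACA* and -0.63 for *ACLY*. Over all genes tested, 79 were downregulated with all libraries and 60 without animal 206 altogether.

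After 24 h the levels hardly moved, and no gene of the 4 was DE between neighbouring time points. All libraries of these comparisons are among those that chose the genes, so these tests are not independent of the choice. From 24 to 48 h, 1.88% of all genes were downregulated and 0.376% upregulated, and from 48 to 72 h 3.73% and 0.786%. Libraries of neighbouring time points overlapped for all 4 genes, while 0.164% and 0.239% of all genes were lower without overlap at 48 h and at 72 h, respectively. The log2 fold changes from 24 to 48 h lay between -0.25 (*ELOVL6*, standard error 0.49, FDR = 0.76) and -0.05 (*ACLY*, 0.22, FDR = 0.91). Those from 48 to 72 h lay between 0.03 (*ACACA*, 0.29, FDR = 0.96) and 0.22 (*ELOVL6*, 0.49, FDR = 0.77). These standard errors carry the wide spread of the early libraries. In a fit of the 14 libraries of 24 and 48 h alone they were 0.05 to 0.11, and small decreases of *ACACA* (log2 fold change -0.20, FDR = 0.024) and *ELOVL6* (-0.32, FDR = 0.042) passed the FDR but not the fold change threshold, while that of *FASN* did not (-0.15, FDR = 0.054). *FASN* and *ACACA* were lower at 48 h than at 24 h in 7 of 7 animals, *ELOVL6* in 6 and *ACLY* in 3.

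The spread between animals changed along with the level. At 0 h the SD of log2 CPM was 1.03 for *ELOVL6*, 0.85 for *FASN*, 0.71 for *ACACA* and 0.32 for *ACLY*, against a median of 0.22 over all genes. At 24 h it was 0.26, 0.11, 0.10 and 0.17, against a median of 0.24. At 0 h 96.9% of genes had a smaller SD than *FASN*, and at 24 h 8.65% did. The highest *FASN* level was 5.37 times the lowest at 0 h, 15.4 times at 6 h and 1.23 times at 24 h. For *ELOVL6* these ratios were 9.87, 34.6 and 1.67. Since the animals ended at about the same level, the drop was largest where the start was high: *FASN* at 24 h was 0.109 times its 0 h level in animal 107 and 0.103 times in 201, but 0.536 times in 103, the animal with the lowest start.

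**Figure D3:**
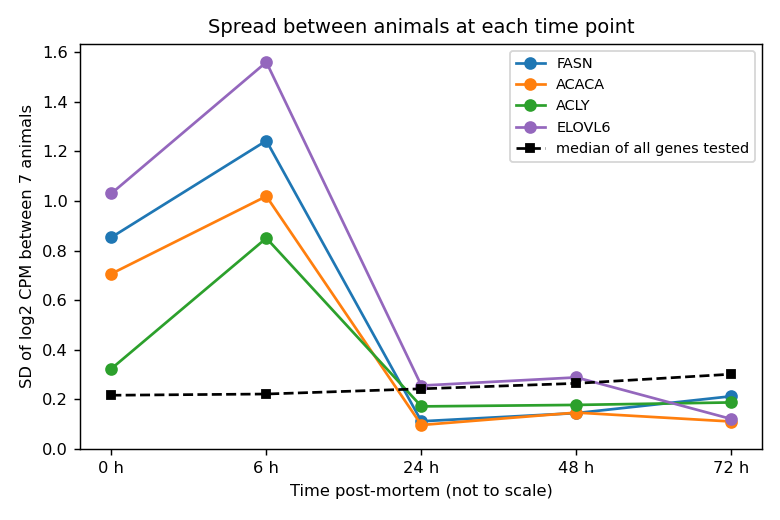
SD of log2 CPM between the 7 animals at each time point for the 4 genes (lines) and its median over all genes tested (dashed line, 14630 genes). *ELOVL6*, *FASN* and *ACACA* lie far above the dashed line at 0 and 6 h and at or below it from 24 h, apart from *ELOVL6* at 24 and 48 h, which lies just above it.

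Adipocyte markers moved with the 4 genes. In bulk muscle, fewer cells of a type and less RNA per cell cannot be told apart. Of 9 adipocyte markers, 8 could be matched to the table: *ADIPOQ*, *LEP*, *PLIN1*, *CIDEC*, *FABP4*, *ADIG*, *TRARG1* and *LIPE*. Their summed level lay between 41 and 332 CPM in the 0 h libraries and between 27.8 and 549 in those of 6 h. It then lay between 10.2 and 24.4 CPM (24 h), 10.7 and 24.7 (48 h), and 12 and 22.1 (72 h). None of the 8 was DE at 6 h, although *ADIPOQ* was downregulated without the 6 h library of animal 206 (log2 fold change -1.11, FDR = 0.039). All 8 were downregulated at 24, 48 and 72 h, where 0.95%, 6.3% and 15.4% of all genes were. Symbols were at hand only for genes that the study lists as DE, so the matched markers of this and the other lists are genes that differ at some time point and do not speak for the unmatched ones. *ADIPOQ*, which encodes the adipocyte hormone adiponectin, was at or below 0.747 CPM in every library from 24 h, with no read in 2 of the 48 h libraries. *LEP* (leptin) had no read in 2 libraries at each of 24, 48 and 72 h. *PLIN1*, a coat protein of the lipid droplet, had 46.6 ± 25.6 CPM initially and 3.28 ± 0.63 by 24 h (SD, n = 7). The part of these cells in the levels of the 4 genes was not tested.

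Animal by animal, the marker sum and the 4 genes went the same way from 0 to 6 h, except for *ACACA* in animal 202. The sum at 6 h was 0.128 times that at 0 h in animal 101, 0.416 times in 107, 0.685 times in 201 and 0.701 times in 104. It was 1.14 times that at 0 h in animal 202, 1.7 times in 103 and 3.62 times in 206. The highest marker sum of all 35 libraries and the highest level of each of the 4 genes were found in the same library, that of animal 206 at 6 h.

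Across the 7 animals, log2 levels were correlated with the log2 marker sum at 0 h and at 6 h (8 relations, exact two-sided permutation tests, Benjamini-Hochberg adjusted over the 8). The values of an animal come from the same library. At 0 h Pearson's r was 0.95 for *ELOVL6* (exact p = 0.0028, adjusted 0.0085), 0.94 for *FASN* (0.0063, 0.009), 0.89 for *ACACA* (0.0067, 0.009) and 0.82 for *ACLY* (0.053, 0.061). Spearman's rho was 0.75 for *ELOVL6* (exact p = 0.066, adjusted 0.13), 0.68 for *FASN* (0.11, 0.18), 0.75 for *ACACA* (0.066, 0.13) and 0.5 for *ACLY* (0.27, 0.27). The relation at 0 h was weaker without animals 103 and 202, which had the lowest marker sums, and the 5 animals left give little room for a small p. Without both, r was 0.72 for *ELOVL6*, 0.43 for *FASN*, 0.57 for *ACACA* and 0.42 for *ACLY* (n = 5, exact p between 0.25 and 0.53). Without animal 103 alone, r at 0 h was 0.83, 0.82, 0.69 and 0.20 in the same order, and no relation passed (exact adjusted p between 0.11 and 0.75). That of *FASN* also missed the threshold without animal 202 (exact adjusted p = 0.051).

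At 6 h r was 0.97 for *ELOVL6* (exact p = 0.0032, adjusted 0.0085), 0.95 for *FASN* (4e-04, 0.0032), 0.91 for *ACACA* (0.0054, 0.009) and 0.76 for *ACLY* (0.079, 0.079). Spearman's rho was 0.96 for *FASN* (exact p = 0.0028, adjusted 0.022), 0.75 for *ELOVL6* (0.066, 0.13), 0.64 for *ACACA* (0.14, 0.19) and 0.61 for *ACLY* (0.17, 0.19). Animals 101 and 206 lay farthest from the median sum. Without them r was 0.97 for *FASN* (exact p = 0.017), 0.81 for *ELOVL6* (0.13), 0.64 for *ACACA* (0.26) and -0.12 for *ACLY* (0.81), so that for *ACLY* and *ACACA* the relation rested on these 2 animals. Without animal 103 alone, r was 0.97 for *ELOVL6*, 0.94 for *FASN* and 0.90 for *ACACA*, with an exact adjusted p of 0.11 for each.

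**Figure D4:**
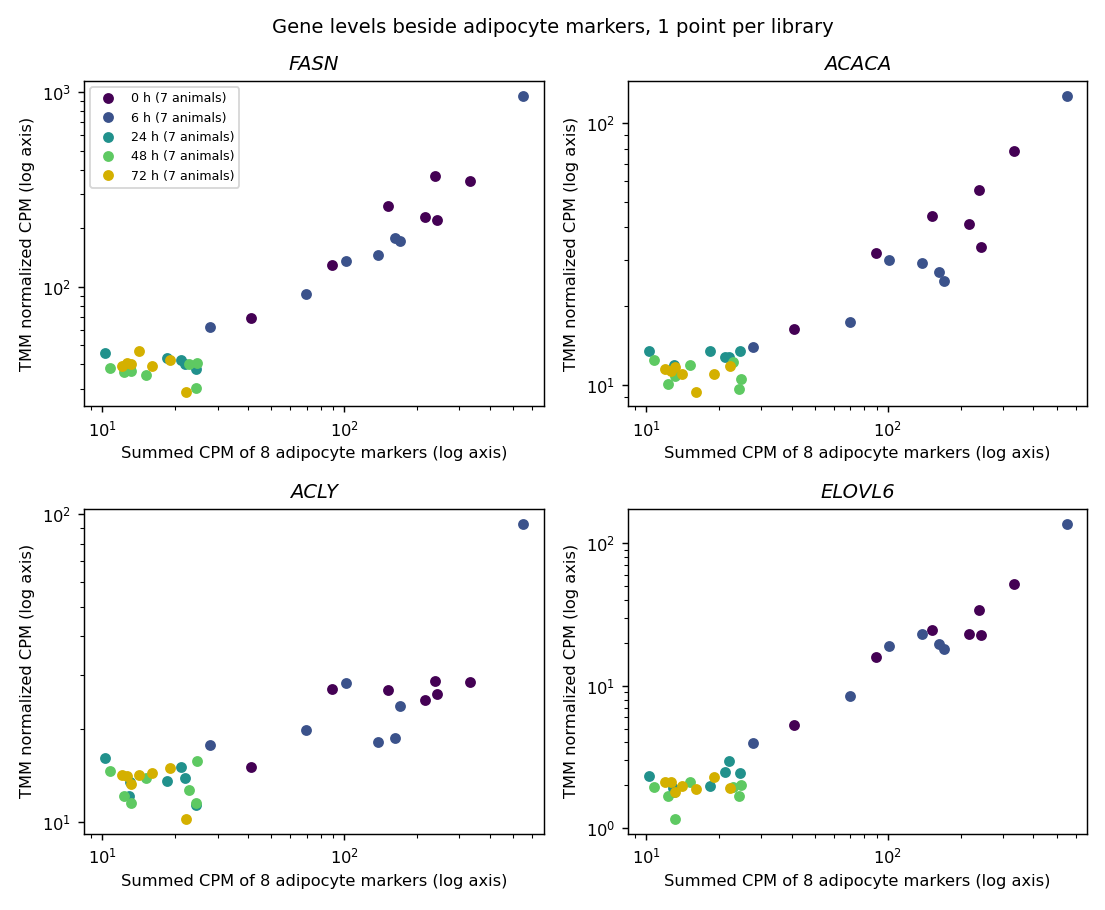
Normalized CPM of each gene (log axis) against the summed CPM of 8 adipocyte markers (log axis), 1 point per library, coloured by time point (7 libraries each). The 0 and 6 h libraries, with sums from 27.8 to 549 CPM, follow a rising band for *FASN*, *ACACA* and *ELOVL6*, and the 24 to 72 h libraries form a cluster at sums of 10.2 to 24.7 CPM.

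The 4 genes differed in what was left once the markers were low. *ELOVL6* had 0.138 ± 0.0307 CPM per CPM of the marker sum at 0 h and 0.139 ± 0.0422 at 24 h (SD, n = 7). For *FASN* this quotient was 1.35 ± 0.339 at 0 h and 2.58 ± 0.987 at 24 h, for *ACACA* 0.264 ± 0.0922 and 0.799 ± 0.27, and for *ACLY* 0.182 ± 0.11 and 0.872 ± 0.362. The marker sum itself had changed in make-up: *LIPE*, *FABP4* and *PLIN1* made up 56.7 ± 4.14% of it at 0 h and 91.7 ± 2.98% at 24 h.

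Markers of other cells had other courses. Of the muscle fibre list, 3 of 9 genes could be matched, and none was DE by 24 h. By 48 h 1 (*TNNT3*, not without animal 101) was upregulated (2.96% of all genes), and by 72 h all 3 were (9.8%). *CKM* rose by 0.63 on the log2 scale at 72 h, and *ACTA1* could not be matched. All 4 matched macrophage markers (of 5) were uncalled at 24 h, whereas 3 had been downregulated by 48 h (6.3% of all genes) and 4 by 72 h (15.4%). The only matched fibroblast marker (of 6), *PDGFRA*, was called at 72 h alone (log2 fold change -1.01), and none of the 6 endothelial markers was matched.

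Other genes of the pathway were taken from 8 lists with 64 genes. Names could be matched for 17 of them, since symbols were at hand only for genes that the study lists as DE, so the 17 are genes that differ at some time point and their counts do not speak for the 64. None of the 17 was DE at 6 h. Against 0 h, the number downregulated was 6 by 24 h, 10 by 48 h and 14 by 72 h, and none was upregulated. Over all genes tested, 0.95%, 6.3% and 15.4% were downregulated at these time points and 0.725%, 2.96% and 9.8% upregulated.

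Genes that supply acetyl-CoA and NADPH were among those called at 24 h. *ACSS2*, which activates acetate to acetyl-CoA, had 75.5 ± 20 CPM initially, 37 ± 4.82 by 24 h (log2 fold change -1.02, standard error 0.24) and 36.3 ± 7.64 by 72 h. *IDH1*, a cytosolic source of NADPH, was lower at 24 h with a log2 fold change of -0.88 (0.20). *PGD*, which yields NADPH in the pentose phosphate pathway, passed the threshold against 0 h at 48 h alone (-0.59, 0.14), and not there without animal 104, 107 or 201. The list of 3 matched genes (of 5) had a median log2 fold change of -0.88 at 24 h, against 0 over all genes tested to 2 decimals.

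*SCD*, the desaturase that turns stearate into oleate, had 557 ± 258 CPM initially and 103 ± 12.9 by 24 h, and its log2 fold change of -2.37 (standard error 0.32) was close to the -2.44 of *FASN*. *ELOVL5*, which elongates polyunsaturated fatty acids, had -0.67 (0.19), and *HSD17B12*, a reductase of the elongation cycle, was called at 72 h alone (-0.61, 0.13). These 3 were the matched genes of 16 for elongation and desaturation. *THRSP*, a small protein of lipogenic tissue that promotes fatty acid synthesis, had the largest difference of all 17, with 40.2 ± 24.7 CPM initially and 1.43 ± 1.23 by 24 h (-5.16, 0.49).

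Other genes were called mainly at the later time points. *PRKAA2*, a catalytic subunit of AMP-activated protein kinase, which phosphorylates and inhibits acetyl-CoA carboxylase, was downregulated from 24 to 48 h (not without the animal block, FDR = 0.089) and again from 48 to 72 h. Its successive levels were 23.4 ± 2.96 CPM (0 h), 16.9 ± 5.96 (24 h), 8.06 ± 3.91 (48 h) and 4.1 ± 2.14 (72 h). *HLCS*, which attaches biotin to carboxylases, had log2 fold changes against 0 h of -0.22, -0.73 and -1.35 by 24, 48 and 72 h. *PRKAA1*, *MBTPS2*, a protease that releases SREBP factors, *ACSL1*, an acyl-CoA synthetase, *CBR4*, of mitochondrial fatty acid synthesis, and *ACADM* and *ACADL*, of fatty acid oxidation, were called at 72 h alone, with log2 fold changes between -0.61 and -0.76. *ACADM* and *ACADL* were not called there without animal 103, nor *ACADL* without 206. *ACSL4* was called at 48 h (-0.78) and 72 h (-1.02). *PPARG*, the adipocyte transcription factor, was downregulated at 24 h (-0.80) and 48 h (-0.68) and short of the threshold at 72 h (-0.58). Without the animal block *PPARG* missed the threshold throughout (FDR = 0.21 at 24 h), and so did *ACSS2* and *ELOVL5* at 24 h. For the acetyl-CoA carboxylase isoform and the malonyl-CoA decarboxylase list, 0 of 2 genes were matched.

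**Figure D5:**
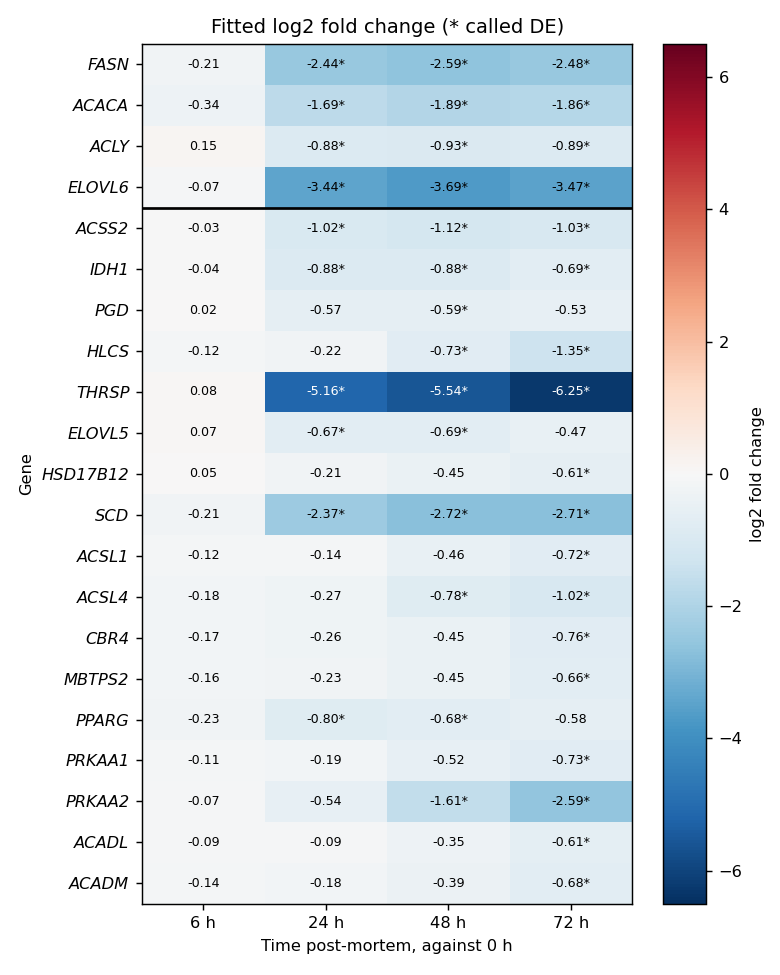
Fitted log2 fold changes against 0 h (colour and printed value) of the 4 genes (above the line) and the 17 matched pathway genes for each later time point, with an asterisk where the gene met the DE threshold. *THRSP*, *SCD* and *ACSS2* are low from 24 h like the 4 genes, whereas *PRKAA2* and *HLCS* become lower from 24 to 72 h.

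Over the 35 libraries, *FASN*, *ACACA* and *ELOVL6* were among each other's 6 closest genes by Pearson's r of log2 CPM. These libraries share animals and time points, so r is a description. For *FASN*, *ELOVL6* was the closest of all genes tested (r = 0.98), then *SCD* (0.98) and *ACACA* (0.98). For *ACACA* the closest was *FASN*, followed by *SCD* (0.98) and *ELOVL6* (0.97), and for *ELOVL6* it was *FASN*, followed by *SCD* (0.98) and *PLIN1* (0.98). *ACLY* differed, with *ACSS2* (0.93) and *PGD* (0.93) ahead of *FASN* (0.93), and it was only 32nd in the order for *FASN*. Among genes with a symbol and a mean of at least 1 CPM, the 3 closest outside the 4 were *SCD*, *PLIN1* and *PCK2* for *FASN*, *SCD*, *UVRAG* and *ACSS2* for *ACACA*, *ACSS2*, *PGD* and *MGST1* for *ACLY*, and *SCD*, *PLIN1* and *LEP* for *ELOVL6*. When the mean of each time point was subtracted, r between pairs of the 4 genes was between 0.81 (*ACLY* and *ELOVL6*) and 0.95 (*ACACA* and *ELOVL6*). These deviations were widest in the early libraries. The SD of *ELOVL6* was 1.03 at 0 h and 1.56 at 6 h, but between 0.12 and 0.29 from 24 h. For *FASN* it was 0.85 and 1.24, but between 0.11 and 0.21 from 24 h. Separate values of r for the later time points were not computed.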

How the data were processed

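RNA-Seq was done on 35 muscle samples (7 heifers at 5 time points). The authors trimmed the reads with Trimmomatic (version 0.39), mapped them with STAR (version 2.7.0f) to ARS-UCD1.2 and counted them per gene with featureCounts (version 1.6.4). They deposited raw counts, not normalized or filtered. The study's methods describe sense-strand, strand-specific counting but list an unstranded setting. The deposited counts are labelled by strand, and their range of totals per library matches the one that the study gives for sense-strand reads. The setting matters where genes overlap: in a later RefSeq assembly 3 genes overlap *ACACA* and 1 (a miRNA) overlaps *FASN*.

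From these counts, genes were kept with filterByExpr (minimum count 10, time point as group), scaled by TMM (factors 0.846 to 1.11) and fitted in edgeR (version 4.0.16, R 4.3.3) with animal as a block. The quasi-likelihood test was used, and p-values were adjusted by Benjamini-Hochberg over all 14630 of these genes (FDR). DE required a fold change over 1.5 at FDR under 0.05. The same fit gave the standard errors. Log2 CPM used a prior count of 2. Alternatives included DESeq2 (version 1.42.0) and limma (version 3.58.1).

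The animal number pairs the samples, as the same carcass was sampled throughout. Deviations from time point means had a median r of 0.58 (0.29 to 0.77) over 70 pairs of the same animal. Over 525 pairs of different animals the median was -0.12 (-0.57 to 0.34). The members and lists were chosen with earlier results of these data known. Of 99 listed pathway and marker genes, 33 had an identifier paired with a symbol in the study's list of DE genes, which gave 3106 symbols. Named genes were the 4 members, list genes called at 24, 48 or 72 h, a few markers, and for each member the 3 genes of highest r; other matched markers were added after their values were seen. 1 further pathway gene was left out of the lists and is not reported here. Gene sequences and lengths were not used here, and positions only for the overlaps. The precision of low levels is limited by counting error.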

Additional observations from a re-analysis of the deposited data

Results flagged for a closer look

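In 8 of 25 groups of 7 libraries (the 4 genes and the adipocyte marker sum at each time point, log2 scale), the highest or lowest library was separated from its nearest neighbour by more than Dixon's critical share of the group's range. About 1 group in 20 would be by chance, and the groups share libraries.

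At 6 h the library of animal 206 stood above the rest for *FASN* (959 CPM), *ACACA* (127 CPM) and *ACLY* (92.9 CPM). For *ACLY* the next highest library at 6 h was 28.2 CPM. At 0 h animal 103 was lowest for *ACLY*, with 15.1 CPM.

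At the late time points the gaps were small in absolute terms. Animal 107 was lowest at 72 h for *FASN* (28.9 CPM) and *ACLY* (10.2 CPM). Animal 201 was lowest at 72 h for *ACACA* (9.47 CPM) and at 48 h for *ELOVL6* (1.16 CPM, 46 reads).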

How the results depend on the processing

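The log2 fold changes of the 4 genes at 48 and 72 h, and all but that of *ACLY* at 24 h, kept their direction and their side of the threshold under every alternative run, which describes the comparisons that chose the genes and is no support for them. *ACLY* at 24 h missed it with no replicate block (-0.88) and ranged from -0.97 to -0.79 when each animal was left out. From 6 to 24 h, the fit of 14 libraries gave -1.97 for *FASN*, -1.18 for *ACACA* and -0.90 for *ACLY*, none past the threshold, and 1 of the 4 genes called. Leaving out each animal gave -1.5 to -0.87 for *ACACA*, -1.15 to -0.63 for *ACLY* and 2 to 4 genes called. The spread in these fits was estimated from fewer libraries, and why calls were lost was not tested.

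Of the values at 6 h against 0 h, those of *FASN*, *ACLY* and *ELOVL6* changed sign and that of *ACACA* stayed negative. With no replicate block they were 0.10 for *FASN* and 0.37 for *ELOVL6*. Leaving out each animal gave -0.78 to 0.012 for *FASN*, -0.82 to -0.12 for *ACACA*, -0.26 to 0.30 for *ACLY*, -0.68 to 0.18 for *ELOVL6* and 0 to 1 gene called. Without the 6 h library of animal 206, an alternative added after the data were seen, *ACACA* was called at -0.83 (1 gene called) and *ACLY* was -0.26. From 48 to 72 h, leaving out each animal gave -0.016 to 0.049 for *ACACA* and -0.009 to 0.085 for *ACLY*. The block changed no other call of the 4 genes.

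Correlations with the adipocyte markers no longer passed an adjusted p of 0.05 without animal 103 alone (0.11 for *FASN*, *ACACA* and *ELOVL6* at 6 h and for *FASN* and *ELOVL6* at 0 h, 0.17 for *ACACA* at 0 h), nor without the 2 farthest animals. At 0 h r was then 0.43 for *FASN*, 0.57 for *ACACA* and 0.72 for *ELOVL6*, and at 6 h 0.97 for *FASN*, 0.64 for *ACACA*, 0.81 for *ELOVL6* and -0.12 for *ACLY*; 5 animals leave little room for a small p. Leaving out each animal gave r at 0 h of 0.82 to 0.96, 0.69 to 0.97 and 0.83 to 0.97 for *FASN*, *ACACA* and *ELOVL6*, and at 6 h of 0.94 to 0.99, 0.87 to 0.94 and 0.95 to 0.98.

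Counts over all genes moved more. With no replicate block, 9 genes were downregulated and 10 upregulated at 6 h (27 and 51 with it), 79 and 22 at 24 h (139 and 106), 317 and 28 from 48 to 72 h (545 and 115), and 0 and 0 in edgeR from 24 to 48 h (275 and 55), where 2527 genes had an unadjusted p under 0.05. Of the pathway genes, *ACSS2*, *ELOVL5* and *PPARG* then missed the threshold at 24 h, *PPARG* at 48 h, *PRKAA2* from 24 to 48 h and *HLCS* from 48 to 72 h. When genes had to reach 1 CPM in 7 samples, 92 were downregulated and 70 upregulated at 24 h, 49 downregulated from 6 to 24 h (79 otherwise), and 252 upregulated at 48 h (433), 17 from 24 to 48 h (55) and 59 from 48 to 72 h (115). The 14 libraries of 6 and 24 h gave 29 downregulated genes, and counts thinned to the smallest library gave 30 upregulated genes at 6 h and 35 from 24 to 48 h. From 6 to 24 h the number upregulated was 0 to 3 under these alternatives and 1 to 6 when each animal was left out (1 otherwise). Leaving out each animal also gave 92 (without 107) to 365 downregulated and 20 (without 107) to 49 upregulated genes from 24 to 48 h, and 16 to 39 and 20 to 47, both lowest without 107, at 6 h. Of the pathway genes, *ELOVL5* at 24 h was lost without 101, 104, 107 or 201, *ACSS2* without 107, *PPARG* at 24 and 48 h without 201, *HLCS* at 48 h without 206 and from 48 to 72 h without 104 or 201, and *HSD17B12* at 72 h without 107 or 206. Without 103, *PGD*, *ELOVL5* and *PPARG* were called at 72 h as well. The causes were not tested.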
